A study of Mus musculus with 24 samples.

Results

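The transcripts of 7 fibrillar collagen chains were followed through 4 groups of mouse plantaris muscle: Col1a1 and Col1a2 (collagen I), Col3a1 (collagen III), Col5a1, Col5a2 and Col5a3 (collagen V) and Col11a1 (collagen XI). They were chosen by gene symbol among the chains of these 4 collagens. Col11a2, another chain of collagen XI, is not among them and is given with the remaining fibrillar chains. The 7 are among the 19937 genes the arrays measure with a probe set of 1 gene symbol. Each of the 7 has 1 such probe set, and 7 of 7 passed the filter on low intensity. The groups were untreated wildtype, overloaded wildtype, untreated Mstn-/- and overloaded Mstn-/- mice, with 6 biological replicates and 6 arrays each. All mice were 3 months old, and the labels name no strain. Mstn-/- mice lack functional myostatin, a secreted member of the TGF-beta family that restrains muscle growth; the labels do not say how the allele was made. For overload, the soleus and most of the gastrocnemius were cut away in both legs under pentobarbitone (50 mg/kg), which leaves the plantaris to carry their load, and the plantaris of 1 leg was used. The untreated mice had no sham operation, so load and surgery cannot be told apart, and the sources used here do not state how long it lasted.

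Fibrillar collagens are the rope-like proteins of connective tissue. Each molecule is a triple helix of chains made as procollagen by fibroblasts, tendon cells and their relatives, and the trimmed molecules line up side by side into fibrils that are then cross-linked. Collagen I, built from Col1a1 and Col1a2 chains, forms the bulk of the fibrils in tendon and in the sheaths around muscle fibres, and collagen III, a trimer of Col3a1 chains alone, is mixed into it in stretchable and healing tissue. Collagens V and XI are minor fibrillar collagens that start new fibrils and limit their width; collagen XI is best known from cartilage and shares chains with collagen V in other tissues. The series title names matrix remodelling and muscle force as the subject, which makes these chains its most direct readout on the RNA level.

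Array medians were between 139 and 147 in intensity, and the test covered 14499 genes; the precision is limited by the 6 arrays per group. As a check of the genotype labels, Mstn had a mean log2 intensity of 10.25 ± 0.11 in wildtype and 8.93 ± 0.31 in Mstn-/- mice without overload (SD, n = 6). Under overload it had 8.40 ± 0.19 and 8.25 ± 0.30, so that Mstn separates the untreated groups and leaves the labels of the overloaded ones unchecked. Where its probes lie relative to the altered part of the gene is not stated. All 12 skeletal muscle markers, such as Acta1, Ckm and Ttn, were above the filter. 1 array stood apart: overloaded wildtype replicate 3 lay at 54.8 on the first principal component, which held 72.7% of the variance, while the other 5 arrays of its group lay between 34.5 and 39.8. The same array was the highest of its group for 6 of the 7 collagens, so results are also given without it.

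Overload raised all 7 chains in wildtype muscle, but by very different amounts, from 7.49-fold for Col3a1 to 1.53-fold for Col5a3. In Mstn-/- muscle all 7 rose as well, each by less than in wildtype, from 4.96-fold for Col3a1 to 1.15-fold for Col5a3. Without overload, 0 of 7 chains differed between the genotypes after adjustment (limma, threshold 0.05), where 21.3% of all genes did; 2 chains, Col1a2 and Col11a1, did at an unadjusted p under 0.05. Under overload all 7 were lower in Mstn-/- than in wildtype muscle, and 5 of them responded to overload less than in wildtype by the test of that difference. Calls over all genes were frequent: in wildtype overload 30.3% of the 14499 genes were called higher, in Mstn-/- overload 27.1% were called higher, and 19.0% were called lower in Mstn-/- than in wildtype muscle under overload. The log2 difference in response, Mstn-/- minus wildtype, was called negative for 8.44% of genes, whichever way they moved with overload. The groups did not overlap, with overload higher, for 21.8% of genes in wildtype and 19.8% in Mstn-/- muscle, and for 7 of 7 chains in both. From the lowest to the highest group mean the order was untreated Mstn-/-, untreated wildtype, overloaded Mstn-/- and overloaded wildtype for 5 chains, with the untreated groups exchanged for Col5a2 and Col5a3. The untreated neighbours in this order overlapped for all 7 chains, and the other neighbours for none. Between the overloaded genotypes 8.46% of all genes did not overlap with Mstn-/- lower. No share over all genes is given for the untreated genotypes or for untreated wildtype against overloaded Mstn-/- muscle, so those counts only describe the chains. The plot of log2 intensities by array shows these levels.

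**Figure D1:**
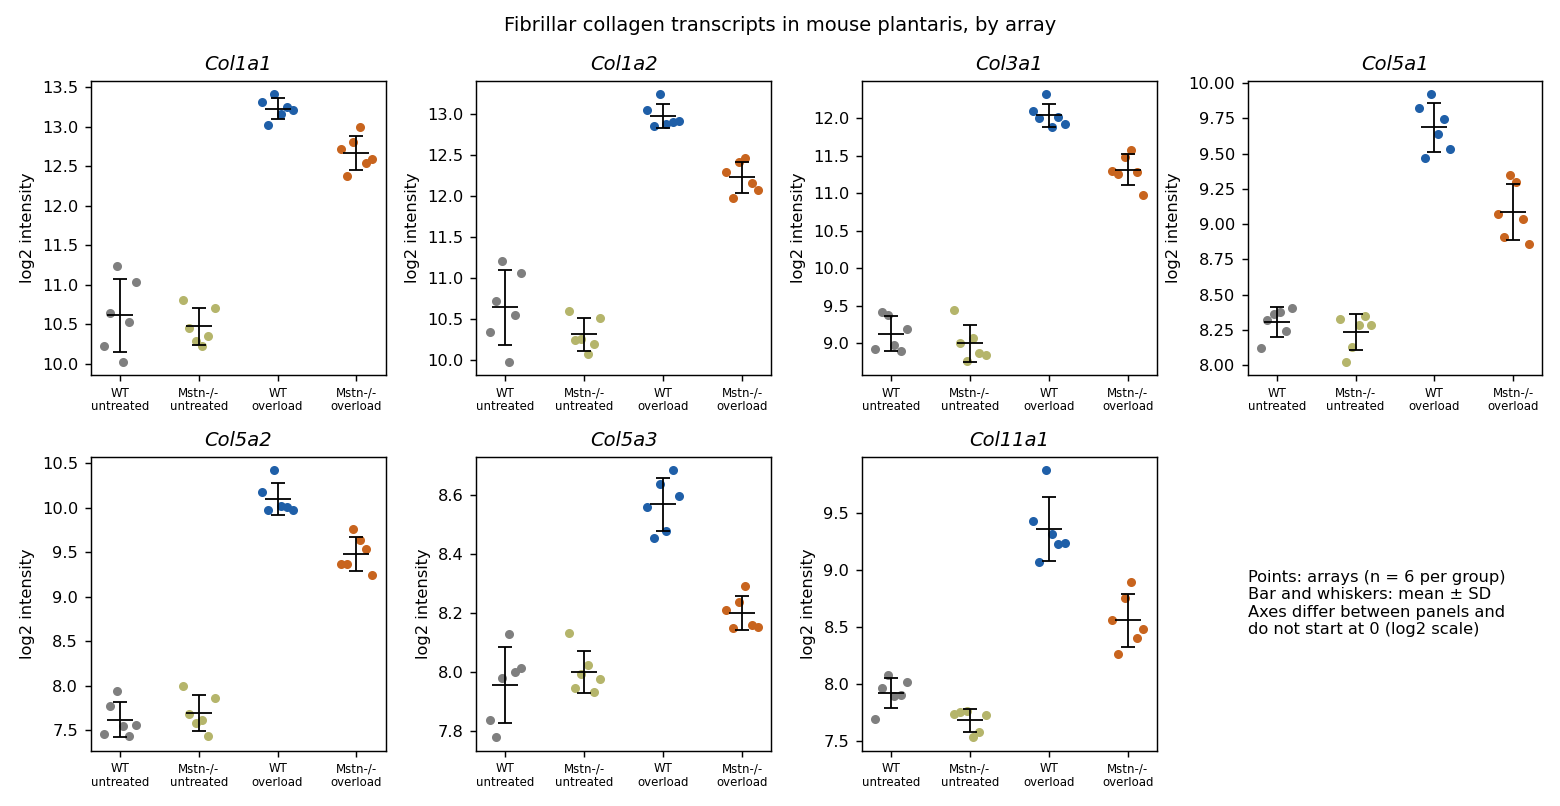
Log2 intensity of each of the 7 collagen transcripts (vertical axis, own range per panel) on the 24 arrays, by group (horizontal axis); points are arrays, bars and whiskers are the mean and SD of 6 arrays. For every chain the untreated groups overlap, and both overloaded groups lie above them and apart from each other, with wildtype highest.

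Collagen I comes first because its chains are the main fibril protein. Col1a1 intensity in untreated wildtype muscle ran from 1045 over a median of 1541 to 2415, and under overload from 8316 over 9592 to 10858. With Mstn absent it ran from 1195 over 1356 to 1793 untreated and from 5309 over 6446 to 8125 overloaded. Every overloaded array was thus above every untreated one, and the highest overloaded Mstn-/- array lay just under the lowest overloaded wildtype array. The rise was 6.10-fold in wildtype (log2 2.61 ± 0.15, SE, n = 6 per group; limma adjusted p = 8.3e-14) and 4.58-fold in Mstn-/- muscle (log2 2.19 ± 0.15; adjusted p = 5.1e-12). Under overload Col1a1 was 1.47-fold lower in Mstn-/- muscle (limma adjusted p = 0.0050). The test of a difference between the responses missed the threshold (log2 -0.41, 95% confidence interval -0.85 to 0.02, limma adjusted p = 0.20). That interval includes 0 and also the difference found for Col5a2 (-0.69).

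Col1a2, which supplies the other chain of the collagen I molecule, followed closely. Its intensity ran from 1008 over a median of 1592 to 2368 in untreated wildtype and from 7409.7 over 7717 to 9708 in overloaded wildtype muscle. The Mstn-/- arrays gave 1079, 1218 and 1550.3 untreated and 4023, 4795 and 5649 overloaded. Again the overloaded groups overlapped neither with each other nor with the untreated ones. Col1a2 rose 5.05-fold in wildtype (log2 2.34 ± 0.15, SE) and 3.78-fold in Mstn-/- muscle (log2 1.92 ± 0.15), and it was 1.68-fold lower in Mstn-/- muscle under overload (limma adjusted p = 2.3e-04). The difference in response missed the threshold (log2 -0.42, 95% confidence interval -0.84 to 0.00, limma adjusted p = 0.17).

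Both collagen I transcripts varied most in untreated wildtype muscle, where the SD was 0.46 on the log2 scale for each, against 0.13 and 0.15 in overloaded wildtype muscle. In that group replicate 3 was highest and replicate 4 lowest for both chains. Replicate 4 also had the lowest summed intensity of 10 tendon markers, 8205, while the other 5 arrays of the group lay between 13379 and 15082; the part of this in the collagen values was not tested. Without this array Col1a2 was lower in untreated Mstn-/- than in untreated wildtype muscle (log2 -0.46, limma adjusted p = 0.012), against -0.33 and an adjusted p of 0.11 with all arrays.

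Col3a1, the single chain of collagen III, made the largest rise of the 7. Its intensity was 477, 545 and 681 (lowest, median, highest) in untreated wildtype and 3761, 4108 and 5089 in overloaded wildtype muscle. The Mstn-/- values were 437, 490 and 694 untreated and 2017, 2506 and 3039 overloaded. The untreated groups covered nearly the same range, and the overloaded groups were separate. Col3a1 rose 7.49-fold in wildtype (log2 2.90 ± 0.11, SE; limma adjusted p = 1.1e-16), the 28th largest rise among the 14499 genes. Without Mstn it rose 4.96-fold (log2 2.31 ± 0.11), and the response was 1.51-fold smaller than in wildtype (log2 -0.59 ± 0.16; limma adjusted p = 0.0099).

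The start regions of Col1a2 and Col3a1 are shown because both chains rose several-fold and their windows differ in make-up. Of the 7 chains 5 matched the RefSeq promoter table of GRCm38.p6 (Col1a2, Col3a1, Col5a1, Col5a3 and Col11a1). Each sequence is the 250 bases before the start on the plus strand, from chr6:4505368-4505617 for Col1a2 and chr1:45311288-45311537 for Col3a1, with capitals for matches on either strand to the CCAAT box, the GC box (GGGCGG), the TATA box (TATAAA) and the SMAD box (CAGACA). No marked matches overlap.
Col1a2: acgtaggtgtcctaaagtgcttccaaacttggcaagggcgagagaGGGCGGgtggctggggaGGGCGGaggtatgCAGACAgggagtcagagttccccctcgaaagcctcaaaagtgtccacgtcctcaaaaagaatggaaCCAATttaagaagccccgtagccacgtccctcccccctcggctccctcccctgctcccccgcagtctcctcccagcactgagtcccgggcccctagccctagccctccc
Col3a1: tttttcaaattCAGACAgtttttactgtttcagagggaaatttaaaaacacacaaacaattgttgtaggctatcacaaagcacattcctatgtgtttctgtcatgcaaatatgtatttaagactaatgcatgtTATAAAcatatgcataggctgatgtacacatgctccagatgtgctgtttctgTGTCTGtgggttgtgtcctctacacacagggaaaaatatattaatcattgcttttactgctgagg

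The pair of windows differs in composition. The Col1a2 window has 62% G and C bases, 2 GC boxes (their first bases 205 and 188 bases before the start), 1 CCAAT box at 109 and 1 SMAD box at 175. The Col3a1 window has 35.2% G and C bases, no GC or CCAAT match, 1 TATAAA at 117 and 2 SMAD boxes at 239 and 65, the latter on the other strand. The median over all 32851 start windows in the table is 52.4% G and C. Such matches are common: 33.8% of those windows hold CCAAT, 32.7% GGGCGG, 12.4% TATAAA and 17.1% CAGACA. Of the other 3 windows, those of Col5a3 and Col11a1 hold 1 CCAAT and 2 GC boxes each and no SMAD match, and that of Col5a1 holds 2 GC boxes and 1 SMAD match. TGANTCA (AP-1 site) was found in none of the 5 and is in 6.75% of all windows, and CATCTG (an E-box of the type bound by scleraxis, a tendon factor) was found in Col3a1 alone and is in 14.4%.

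The collagen V chains did not respond alike. Col5a2 rose 5.56-fold in wildtype (log2 2.48 ± 0.10, SE; limma adjusted p = 4.2e-16), from an intensity of 174, 188 and 245 (lowest, median, highest) to 1002, 1032 and 1371. In Mstn-/- muscle it rose 3.45-fold, from 173, 201 and 255 to 604, 700.2 and 864. The overloaded groups did not overlap, and of the 7 chains Col5a2 had the largest loss of response in Mstn-/- muscle (1.61-fold, log2 -0.69 ± 0.15; limma adjusted p = 0.0016).

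Col5a1, the chain found in the common collagen V molecules, rose less. Its intensity went from 278, 324 and 338 to 707, 828 and 969 in wildtype and from 260.3, 312 and 326 to 465, 531 and 652 in Mstn-/- muscle. This was a rise of 2.61-fold in wildtype (log2 1.39 ± 0.09, SE) and 1.81-fold in Mstn-/- muscle (log2 0.85 ± 0.09), with no overlap between groups except the untreated pair. The response was 1.45-fold smaller in Mstn-/- muscle (log2 -0.53 ± 0.12; limma adjusted p = 0.0032).

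Col5a3, a chain of a less common collagen V form, changed least. Its intensity went from 219.6, 254 and 280.1 to 351, 382 and 411 in wildtype muscle. In Mstn-/- muscle it went only from 244, 253 and 280.4 to 284, 291 and 314, so that the highest untreated and the lowest overloaded array nearly met. The rise of 1.53-fold in wildtype (log2 0.61 ± 0.06, SE; limma adjusted p = 3.4e-10) compared with 1.15-fold in Mstn-/- muscle (log2 0.20 ± 0.06; adjusted p = 0.0033). On the log2 scale the Mstn-/- response of Col5a3 was 32.6% of the wildtype one, while it was 84.1% for Col1a1, 82.0% for Col1a2, 79.6% for Col3a1, 72.1% for Col5a2, 61.6% for Col5a1 and 61.1% for Col11a1; these shares were not tested against each other. The difference in response was called for Col5a3 (log2 -0.41 ± 0.08; limma adjusted p = 6.6e-04).

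Col11a1, a chain of collagen XI, rose 2.71-fold in wildtype (log2 1.44 ± 0.11, SE; limma adjusted p = 7.7e-12) and 1.84-fold in Mstn-/- muscle (log2 0.88 ± 0.11). Its intensity went from 207, 244 and 269.5 to 538, 620.2 and 938 in wildtype and from 185, 213 and 217 to 307, 367 and 477 in Mstn-/- muscle. The value of 938 is overloaded wildtype replicate 3, the array that stood apart; the next highest of the group was 687. Under overload Col11a1 had the largest genotype difference of the 7, 1.74-fold lower in Mstn-/- muscle (log2 -0.80 ± 0.11; limma adjusted p = 2.3e-06), and its response was 1.47-fold smaller (log2 -0.56 ± 0.15; adjusted p = 0.011). In untreated muscle it was 1.18-fold lower in Mstn-/- mice, which missed the threshold (limma adjusted p = 0.11) but passed it without overloaded wildtype replicate 3, an array outside that comparison that adds to the pooled spread (adjusted p = 0.043).

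In cartilage, collagen XI is joined with collagen II, so other cartilage genes are given beside Col11a1. Of 10 cartilage markers 6 were above the filter, and Matn1, Hapln1, Col10a1 and Snorc were not. In wildtype overload 4 of the 6 rose, among them Acan (log2 2.66 ± 0.19, SE) and Sox9 (1.57-fold). In Mstn-/- overload 3 rose and 2 fell, Col9a1 (log2 -0.19) and Col9a2 (log2 -0.20), chains of the fibril-associated collagen IX. Over all genes 30.3% were called higher in wildtype overload, and 27.1% higher and 33.5% lower in Mstn-/- overload. The size for Acan, the large proteoglycan of cartilage, is uncertain because its untreated means were below the filter. The summed intensity of the 10 markers was 1272 to 1651 in untreated and 1946 to 2909 in overloaded wildtype muscle, and 1394 to 1481 and 1520.1 to 1812 in Mstn-/- muscle. Its part in the Col11a1 values was not tested.

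**Figure D2:**
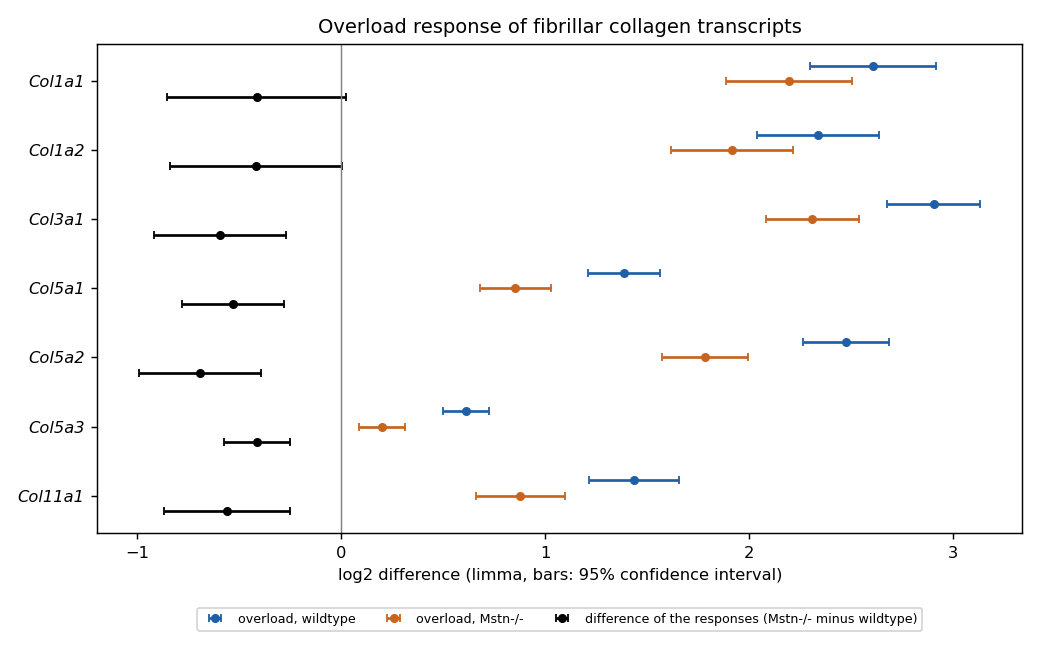
Log2 difference (horizontal axis) between overloaded and untreated muscle for each chain (vertical axis) in wildtype and in Mstn-/- mice, and the difference of these responses, with 95% confidence intervals from limma (n = 6 arrays per group). All responses lie above 0, Col3a1 is highest at 2.90 and 2.31, and the intervals of the difference reach 0 for Col1a1 and Col1a2 alone.

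Without overloaded wildtype replicate 3 the same chains were called in both overload comparisons, in the genotype comparison under overload and in the difference in response. The wildtype rise was then 5.95-fold for Col1a1, 4.87-fold for Col1a2, 7.21-fold for Col3a1, 2.53-fold for Col5a1, 5.32-fold for Col5a2, 1.51-fold for Col5a3 and 2.52-fold for Col11a1. The difference in response was -0.54 for Col3a1, -0.48 for Col5a1, -0.63 for Col5a2, -0.40 for Col5a3 and -0.46 for Col11a1 on the log2 scale, with limma adjusted p between 0.0014 and 0.020. The genotype difference under overload was between -0.35 (Col5a3) and -0.70 (Col11a1 and Col1a2). In all, 7 of 7 chains were lower in Mstn-/- muscle under overload on all arrays, with no overlap between the genotypes, which 8.46% of genes showed in that direction.

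Because chains of 1 molecule or fibril are compared within an array, ratios of 2 chains show whether their measured intensities changed unequally. The level of a ratio has no meaning by itself, since it depends on the probes. A shift of a ratio can also depend on how the probes respond at different intensities, which was not tested. Chains of 5 pairs were tested in 4 comparisons with exact two-sided permutation tests, adjusted over the 20 tests (Benjamini-Hochberg). The pairs were chosen with earlier results of these data known. The adjustment does not account for that choice, so the p-values describe these pairs only. The smallest p that 6 against 6 arrays allow is 0.0022, and adjusted it came to 0.0062 here. Of the 20 ratios 8 passed.

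Col1a1 rose more than Col1a2. The log2 ratio of Col1a1 to Col1a2 was -0.03 ± 0.06 (SD, n = 6) in untreated wildtype, 0.25 ± 0.07 in overloaded wildtype, 0.16 ± 0.06 in untreated Mstn-/- and 0.44 ± 0.06 in overloaded Mstn-/- muscle. The shift with overload was 1.21-fold in both genotypes (log2 0.27 ± 0.04 and 0.28 ± 0.04, SE; exact permutation adjusted p = 0.0062 for each), with no overlap. The ratio was also 1.14-fold higher in Mstn-/- than in wildtype muscle, both untreated (exact permutation adjusted p = 0.011) and overloaded (exact adjusted p = 0.0062). The ratio thus shifted upward both with overload and in Mstn-/- muscle, although the untreated level of neither chain differed between the genotypes by the test.

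Of the 5 pairs tested, the ratio of Col5a2 to Col5a1, within collagen V, shifted most with overload. Its log2 value in wildtype muscle was -0.68 ± 0.17 (SD, n = 6) untreated and 0.41 ± 0.09 overloaded, a 2.13-fold shift, and -0.54 ± 0.23 and 0.39 ± 0.08 in Mstn-/- muscle, a 1.91-fold shift (exact permutation adjusted p = 0.0062 for each). In both genotypes all 6 overloaded arrays lay above all 6 untreated ones. The overloaded genotypes had nearly the same ratio (log2 difference -0.01 ± 0.05, SE; exact adjusted p = 0.86). The ratio of Col5a3 to Col5a1 moved the other way, falling by 0.77 on the log2 scale in wildtype and by 0.65 in Mstn-/- muscle (exact adjusted p = 0.0062 for each).

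Other pairs shifted less. The ratio of Col11a1 to Col5a1 changed by 0.05 ± 0.07 (SE) in wildtype and by 0.02 ± 0.10 in Mstn-/- muscle on the log2 scale (exact permutation adjusted p = 0.65 and 0.86). That of Col3a1 to Col1a1 changed by 0.30 ± 0.15 and 0.12 ± 0.12 (exact adjusted p = 0.14 and 0.44). These tests do not show that the chains of these pairs moved equally; the spread of the Col3a1 to Col1a1 ratio in untreated wildtype muscle was 0.34 (SD).

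**Figure D3:**
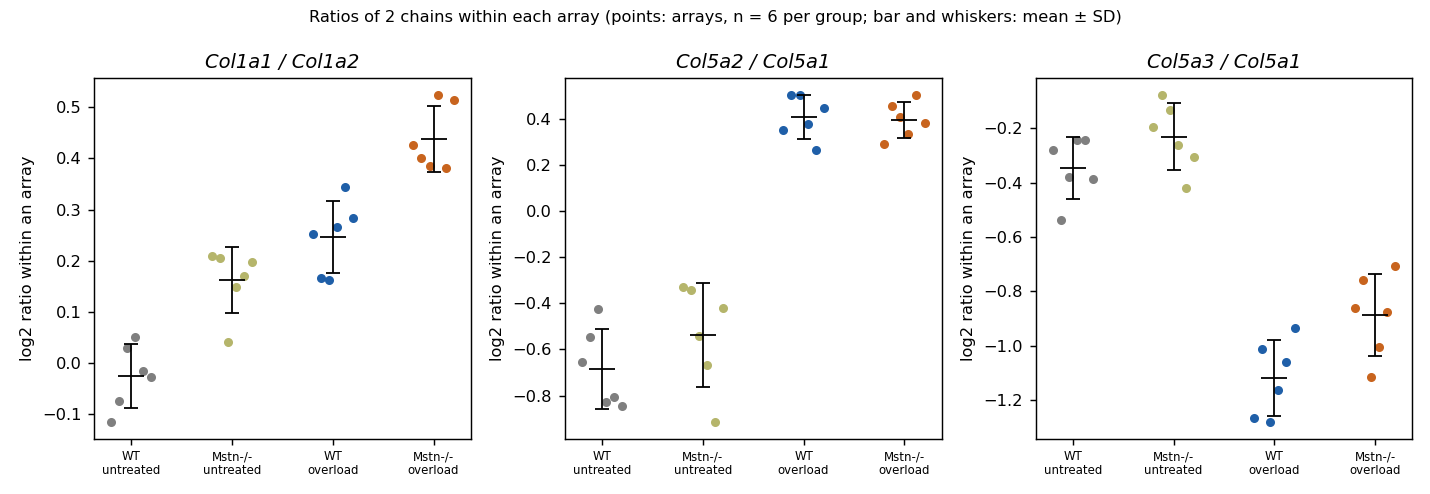
Log2 ratio within each array (vertical axis) of Col1a1 to Col1a2, Col5a2 to Col5a1 and Col5a3 to Col5a1 by group (horizontal axis); points are arrays, bars and whiskers are the mean and SD of 6 arrays. The first ratio steps up from -0.03 to 0.44 across the groups, the second lies below 0 in untreated and above 0 in overloaded muscle, and the third falls with overload.

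The chains also varied together among mice of 1 group. After each group mean was subtracted, Col1a1 and Col1a2 had a Pearson correlation of 0.97 over the 24 arrays (Spearman 0.94; permutation within groups, adjusted p = 2.1e-04 and 1.1e-04 over 21 pairs; 0.96 without the 2 arrays farthest from the median of Col1a1). Col3a1 and Col5a2, which neighbour each other in the mouse genome, came second with 0.82 (Spearman 0.75; permutation adjusted p = 2.1e-04 and 5.9e-04; 0.77 without 2 arrays). All 15 pairs without Col5a3 passed the adjusted permutation test of Pearson's r, and 1 of 6 pairs with Col5a3, that with Col5a1, did. By Spearman's coefficient the pair of Col5a3 and Col11a1 passed as well (0.44, permutation adjusted p = 0.046). Col5a3 and Col1a1 reached 0.23 (Spearman 0.40, permutation adjusted p = 0.45 and 0.10). Without the 2 untreated wildtype arrays farthest from the median of Col1a1 this became 0.59, so the low value of this pair rests on them. Leaving out 2 arrays by the median of the other chain gave Col5a3 0.52 with Col1a2 (0.13 on all arrays). It gave 0.098 with Col3a1 (0.27), 0.22 with Col5a2 (0.275) and 0.47 with Col5a1 (0.53), so not all low values rose. By the median of Col5a3, the pair with Col11a1 had 0.56 (0.41). The number of arrays per group limits how well such relations can be read.

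**Figure D4:**
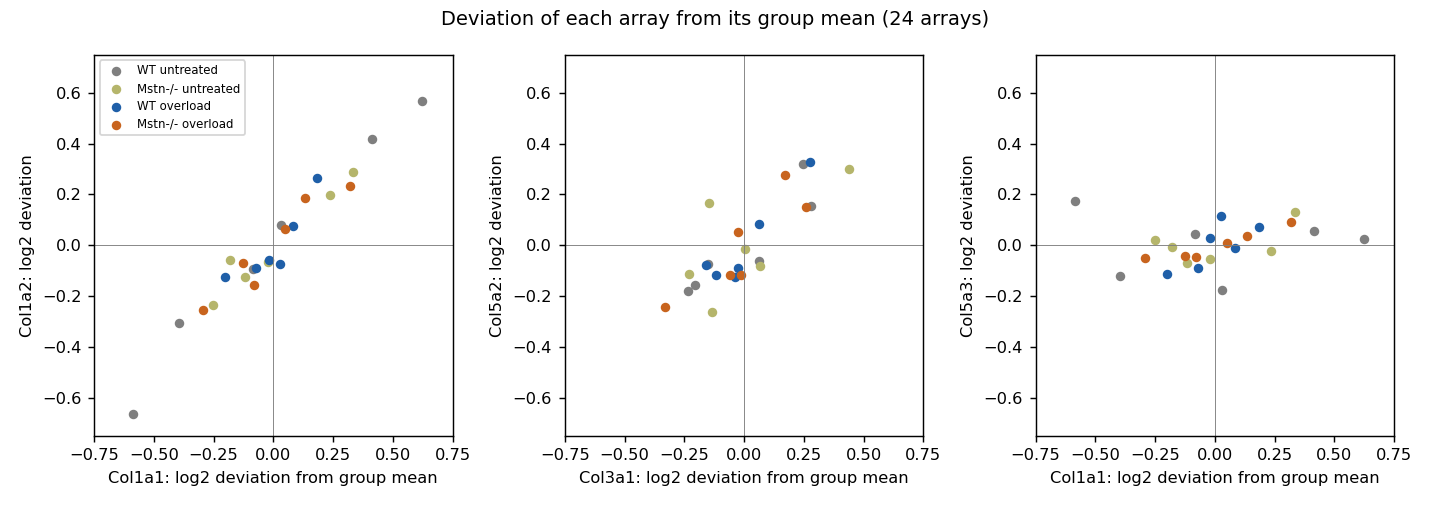
Deviation of each of the 24 arrays from its group mean (both axes on the log2 scale) for Col1a1 against Col1a2, Col3a1 against Col5a2 and Col1a1 against Col5a3; colours mark the groups. The first pair lies close to a line (Pearson correlation 0.97), the second more loosely (0.82), and the third has 0.23 over all arrays and 0.59 without the 2 untreated wildtype arrays farthest from the median of Col1a1.

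Among all tested genes, those most like Col1a1 over the 24 arrays were Col1a2 (Pearson correlation 0.99), fibronectin Fn1 (0.99) and the microfibril gene Mfap2 (0.99), and with group means subtracted Col1a2 (0.97), the collagen-binding glycoprotein Sparc (0.91) and Cpxm2 (0.83). For Col11a1 they were the fibrillin Fbn2 (0.98), Lgr5 (0.98) and the prolyl 3-hydroxylase family gene P3h3 (0.98), with Fbn2 (0.89), Cercam (0.84) and P3h3 (0.81) after subtraction. For Col5a3 they were Ampd2 (0.96), Ccn5 (0.95) and Sorcs2 (0.95), and Tmem262 (0.80), Cacna1d (0.80) and Rhoh (0.78) after subtraction. The values over 24 arrays include the differences between the groups, and all these values only describe likeness.

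The other genes of the collagen pathway were counted by step. Of 20 tested genes that hydroxylate, fold and export procollagen, 16 rose in wildtype overload and 1 fell, with a median of 1.95-fold, against 30.3% higher and 35.6% lower of all genes. The lysyl hydroxylase Plod2 rose 9.05-fold and the prolyl hydroxylase subunit P4ha3, whose untreated Mstn-/- mean was below the filter, by 3.47 on the log2 scale, while Tmem38b, a channel of the endoplasmic reticulum, fell 1.24-fold. With Mstn absent 14 rose and 2 fell, against 27.1% higher and 33.5% lower of all genes, and the collagen chaperone Serpinh1 rose 2.59-fold. Under overload 15 of 20 were lower in Mstn-/- muscle, P3h2 by 2.45-fold, against 19.0% of all genes. P3h2 was already 1.78-fold lower in untreated Mstn-/- muscle (limma adjusted p = 2.5e-05), and its difference in response missed the threshold (limma adjusted p = 0.074). The log2 difference in response was called negative for 9 of 20, against 8.44% of all genes. Of these 9, Mia3 did not pass the test in wildtype (log2 0.02) and fell in Mstn-/- muscle (log2 -0.27); the others rose in both genotypes, by less in Mstn-/- muscle.

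Genes of propeptide removal, which lets procollagen assemble, rose and fell. Of 7 tested genes 4 rose and 2 fell in both genotypes. Over all genes 30.3% were called higher and 35.6% lower in wildtype overload, and 27.1% and 33.5% in Mstn-/- overload. The procollagen C-proteinase Bmp1 rose 3.77-fold in wildtype and 2.50-fold in Mstn-/- muscle, and its enhancer Pcolce 2.98-fold and 2.93-fold. A second enhancer, Pcolce2, fell 1.66-fold and 1.70-fold. Of 4 lysyl oxidases, which cross-link fibrils, 3 rose in wildtype, Loxl1 by 4.40-fold and Loxl3 by 2.27-fold. Among the Mstn-/- groups 3 rose (Loxl1 by 3.08-fold) and Loxl4 fell 1.28-fold. Under overload 4 of 4 were lower in Mstn-/- than in wildtype muscle, Lox by 2.38-fold, against 19.0% of all genes.

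Proteins that coat or organise fibrils rose widely, 19 of 19 in wildtype and 17 of 19 in Mstn-/- muscle, with medians of 3.50-fold and 3.08-fold. Some of the 19 are counted again below. Lum, Dcn and Dpt are also fibroblast markers, and Fmod, Kera, Thbs4 and Comp also tendon markers. Col12a1 and Col14a1 are also counted among the other collagens. Cthrc1, a secreted glycoprotein, rose 14.2-fold and Fn1 6.13-fold in wildtype. Among 12 genes of collagen cleavage and uptake 9 rose and 1 fell in each genotype; Mmp14, a membrane collagenase, rose 8.60-fold in wildtype and 4.50-fold in Mstn-/- muscle, and the protease inhibitor Timp4 fell 5.87-fold and 2.30-fold. Of 10 collagen receptors 7 rose in wildtype and 9 in Mstn-/- muscle. For these 3 lists, the shares of all genes were 30.3% higher and 35.6% lower in wildtype overload, and 27.1% and 33.5% in Mstn-/- overload. Of the 10 receptors 3 had a negative and 1 a positive difference in response, against 8.44% and 8.92% of all genes. The response of Itga11, an integrin chain that binds collagen I, was 2.43-fold smaller in Mstn-/- muscle (limma adjusted p = 4.6e-06), with a rise of 3.15-fold in wildtype. Untreated, it was 1.24-fold higher in Mstn-/- muscle (limma adjusted p = 0.045). Adgrg1 had the positive difference (log2 0.55, limma adjusted p = 0.0014), with log2 -0.02 in wildtype and 0.54 in Mstn-/- muscle.

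Regulators of collagen transcription moved both ways. Of 24 tested, 14 rose and 5 fell in wildtype and 14 rose and 7 fell in Mstn-/- muscle. Over all genes 30.3% were called higher and 35.6% lower in wildtype overload, and 27.1% and 33.5% in Mstn-/- overload. The growth factor Tgfb1 rose 2.95-fold and its receptor Tgfbr2 2.92-fold in wildtype. The CCAAT-binding subunits Nfyb and Nfyc fell 1.62-fold and 1.33-fold there, while Nfya, another such subunit, rose 1.46-fold. In Mstn-/- muscle Nfya rose 1.27-fold. The log2 difference in response, Mstn-/- minus wildtype, was called positive for 4 of the 24 and negative for 7, against 8.92% and 8.44% of all genes. The co-activator Wwtr1 rose in both genotypes, by log2 0.88 in wildtype and 0.21 in Mstn-/- muscle, while the receptor Tgfbr1 rose in wildtype (log2 0.25) and fell in Mstn-/- muscle (log2 -0.31). The signal transducer Smad3 had log2 differences of -0.13 in wildtype, which did not pass the test, and 0.36 in Mstn-/- muscle, and the co-activator Mrtfa 0.05, which did not pass, and 0.67. Nfyb and Nfyc, also among the positive differences, fell in both genotypes, by less in Mstn-/- muscle. In untreated muscle Tgfbr1 was 1.55-fold higher and Smad3 1.51-fold lower in Mstn-/- than in wildtype mice.

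Remaining fibrillar chains, Col2a1, Col11a2, Col24a1 and Col27a1, changed little: 2 of 4 rose in wildtype, Col2a1 by 1.39-fold and Col27a1 by 1.15-fold, and 1 of 4, Col2a1, in Mstn-/- muscle by 1.26-fold. Of all genes 30.3% were called higher in wildtype and 27.1% in Mstn-/- overload. Col11a2, the collagen XI chain outside the 7, did not pass in wildtype (log2 0.12, limma adjusted p = 0.077) or Mstn-/- muscle (log2 -0.03, adjusted p = 0.72). The median log2 difference in wildtype was 0.16 in the 4 remaining chains and 2.34 in the 7 chains above, against -0.06 over all tested genes. Both sets were chosen with earlier results of these data known, so this contrast is only descriptive.

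Most markers of the cell types that make or accompany collagen rose with overload, and some fell. In bulk muscle more cells of a type and more RNA per cell cannot be told apart. Over all genes 30.3% were called higher and 35.6% lower in wildtype overload, and 27.1% and 33.5% in Mstn-/- overload. Of 11 fibroblast markers 8 rose and 2 fell in wildtype overload, Lum by 5.87-fold and Pi16 by 2.78-fold, with Gsn down 1.35-fold. In Mstn-/- overload 6 of these markers rose and 2 fell, with a median of 1.13-fold against 1.52-fold in wildtype. Their summed intensity was 15772 to 20437 in untreated and 30670.5 to 36682 in overloaded wildtype muscle, and 18026 to 22173 and 24402 to 29118 in Mstn-/- muscle. Of 10 tendon markers 9 rose and 1 fell in wildtype and 9 rose in Mstn-/- muscle; Tnmd rose 4.56-fold and 5.04-fold. Their sums were 8205 to 15082 and 23578 to 30123 in wildtype, and 7354 to 10560.1 and 16515 to 20429.8 in Mstn-/- muscle. Without overload 8 of the 10 tendon markers were lower in Mstn-/- muscle, Tnmd by 1.55-fold, while the collagen chains did not pass the test there. Of all genes 21.3% differed between the untreated genotypes in either direction. All measured markers of both lists were above the filter. Both lists share genes with the fibril proteins above, so these counts are not separate. Dcn alone, with a lowest group mean of 8824, is a large part of the fibroblast sums.

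Of 12 macrophage markers 11 rose in wildtype, Lyz2 by 6.02-fold, with sums of 3052 to 4169 untreated and 15108 to 21812 overloaded. In Mstn-/- muscle 11 rose and 1 fell, with sums of 4494 to 5677 and 10349 to 19259. The shares of all genes were 30.3% higher in wildtype overload, and 27.1% higher and 33.5% lower in Mstn-/- overload. Muscle fibre markers summed to 126393 to 130081 in untreated and 102876 to 121032 in overloaded wildtype muscle, and to 121073 to 129566 and 119829 to 127748 in Mstn-/- muscle. In the overloaded genotypes the fibroblast and tendon sums did not overlap and were higher in wildtype, as were the 7 collagens. The part of these shifts in the collagen results was not tested. The overloaded wildtype array that stood apart had the highest fibroblast, tendon and macrophage sums and the lowest muscle sum of its group.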

How the data were processed

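RNA of plantaris muscle (1000 ng per labelling, after removal of ribosomal RNA) was hybridised to 24 whole-transcript arrays, per the labels' protocols. The authors deposited intensities per probe set, made with RMA (version unstated) per the submitters' processing notes. Values from 4.72 to 25589 are linear, so log2 was taken without a pseudocount. RMA tends to compress large fold changes. Of 34760 probe sets, 21640 with 1 gene symbol were used, and per gene the one with the highest mean. Genes with a group mean above the 30th percentile (intensity 98.9) were tested, 14499 in all. limma 3.58.1 in R 4.3.3 fitted 1 mean per group to all 24 arrays (20 residual degrees of freedom), with eBayes and Benjamini-Hochberg adjustment over all tested genes at 0.05. The fit and the permutation tests were tested on simulated data.

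The 7 members, the gene lists and the pairs of chains were chosen with earlier results of these data known. Named genes are the members, Mstn, up to 2 risen and 2 fallen genes with the smallest adjusted p of each list in a comparison, and the 3 genes most like Col1a1, Col5a3 and Col11a1 by Pearson correlation, predicted gene models left out; other comparisons of a named gene are given beside it, and Acta1, Ckm and Ttn are examples of their list. Nfya was added beside Nfyb and Nfyc, and genes shared by several lists are named as such. Within-group likeness was tested with 100000 permutations within groups. No array duplicated another: the most alike pair had 0.0201% identical values. Labels call the replicates biological. Correlations of same-numbered arrays' deviations from their group means ran from -0.41 to 0.36 (median 0.02). They were not set against those of differently numbered arrays, so they cannot settle whether the numbers pair mice.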

Additional observations from a re-analysis of the deposited data

Results flagged for a closer look

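The overload response differed between the genotypes, by limma's test of that difference, for 5 of the 7 chains. On the log2 scale, Mstn-/- minus wildtype, it was -0.59 for Col3a1, -0.53 for Col5a1, -0.69 for Col5a2, -0.41 for Col5a3 and -0.56 for Col11a1. For Col1a1 and Col1a2 it was -0.41 and -0.42, of like size but with wider error (SE 0.21 for both). No array was outlying for any chain in the 28 sets of 1 chain and 1 group by Dixon's test (critical value 0.625).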

How the results depend on the processing

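Tried were quantile normalization, equal array medians, no filter and a filter at the 50th percentile, averaged probe sets, a trended robust variance, array weights, a replicate block, fits of the compared groups alone and leaving out each array. The counts of 7, 7, 7 and 5 chains in both overload comparisons, the genotype comparison under overload and the difference in response were the same in each setting that was run. For the genotypes without overload the count of 0 became 2 with array weights (Col1a2 and Col11a1, limma adjusted p = 0.040 and 0.023) and 1 with only the untreated groups in the fit (Col11a1, adjusted p = 0.015). Leaving out 1 array gave 0 to 1 chain there, with Col1a2 past the threshold without untreated wildtype replicate 4 and Col11a1 without overloaded wildtype replicate 3. With the replicate number as a replicate block the counts stayed at 7, 7, 0, 7 and 5, and over all genes 9512, 8688, 3004, 5219 and 2440 were called, against 9560, 8789, 3091, 5293 and 2516 without it.

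Ratios of chains called on all arrays stayed past the threshold with any 1 array left out. Of the others, that of Col3a1 to Col1a1 ran from -0.065 to 0.10 between untreated genotypes and from -0.22 to -0.12 between overloaded ones (log2). That of Col5a2 to Col5a1 ran from -0.041 to 0.0090 and that of Col5a3 to Col5a1 from 0.20 to 0.28 between overloaded genotypes. That of Col11a1 to Col5a1 ran from -0.0062 to 0.087 with overload in wildtype, from -0.021 to 0.080 with overload in Mstn-/- mice, from -0.23 to -0.13 between untreated and from -0.23 to -0.14 between overloaded genotypes. Between overloaded genotypes the exact permutation adjusted p fell as low as 0.029 for Col3a1 to Col1a1, against 0.11 on all arrays. It fell to 0.019 for Col5a3 to Col5a1 (0.053 on all arrays) and 0.048 for Col11a1 to Col5a1 (0.069). Between untreated genotypes it fell to 0.038 for Col11a1 to Col5a1 (0.14). The cause was not tested where a sign or call changed. Averaging probe sets leaves ratios as they are, since each chain has 1. Intensities near the filter limit what can be read of dim genes such as Acan.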

Other observations

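Collagens that do not form fibrils were counted in the same way. Of 6 chains of collagen IV, the network collagen of basement membranes, 2 rose in both genotypes by the limma test, a share near that of all genes called higher (30.3% in wildtype and 27.1% in Mstn-/- muscle): Col4a1 by 1.82-fold in wildtype and 1.58-fold in Mstn-/- muscle, and Col4a2 by 1.83-fold and 1.52-fold. Of 26 other collagen chains 12 rose in wildtype, and 12 rose and 3 fell in Mstn-/- muscle, against the same 30.3% and 27.1% higher and 33.5% lower in Mstn-/- muscle. Chains of collagen VI, which forms beaded filaments around muscle fibres, had the smallest adjusted p but not the largest folds: Col6a3 rose 6.14-fold in wildtype and 4.27-fold in Mstn-/- muscle, and Col6a2 3.62-fold and 2.60-fold. Larger rises were those of Col14a1 (8.84-fold and 5.51-fold), Col8a1 (8.54-fold and 6.17-fold) and Col12a1 (7.23-fold and 5.86-fold), named after their values were seen. The log2 difference in response was called negative for 6 of the 26, against 8.44% of all genes, and all 6 rose in both genotypes. The rise was smaller in Mstn-/- muscle for Col6a1 by 1.54-fold (limma adjusted p = 0.0014) and for Col6a2 by 1.39-fold (adjusted p = 0.0036). Under overload 12 of the 26 were lower in Mstn-/- muscle, against 19.0% of all genes, and 1 was higher. Without overload Col12a1, a collagen that attaches to collagen I fibrils, was the 1 chain of the 26 that differed between the genotypes, against 21.3% of all genes in either direction. It was 1.58-fold lower in Mstn-/- muscle (limma adjusted p = 0.0059).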
